A study of Homo sapiens with 24 samples.

Results

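The genes described here are 10 claudin and tight junction genes, CLDN1, CLDN2, CLDN3, CLDN4, CLDN7, CLDN8, CLDN12, OCLN, TJP1 and F11R, of the 58051 genes in the count tables. They were matched to the tables by Ensembl identifier, and they were selected with their baseline levels and their response to Ocoxin already known, so both are given as a description, without a test. RNA sequencing was performed on 24 libraries of 4 human cancer cell lines. SW620 is a colorectal adenocarcinoma (COAD) line, BxPC-3 a pancreatic adenocarcinoma (PAAD) line, LNCaP a prostate adenocarcinoma (PRAD) line and HCC-70 a triple-negative breast cancer (TNBC) line. Each line had 3 control and 3 Ocoxin libraries. Ocoxin, a supplement made from green tea and other plants with added vitamins, minerals and amino acids, was given for 48 h in RPMI-1640 with 1% fetal bovine serum, at a dilution of 1:700 in COAD and TNBC, 1:500 in PAAD and 1:50 in PRAD. The dose therefore differed between the lines, and each cancer is represented by a single line. Polyadenylated RNA came from the cells that had stayed attached, which means that cells that detached are missing from every group. Nothing states that the replicates were separate cultures, so the p-values measure only the spread between these libraries.

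Tight junctions seal the space between neighbouring epithelial cells and separate the apical from the basolateral membrane. Claudins are four-pass membrane proteins that form the strands of the seal, and their mix sets whether the seal is tight or lets ions through. Occludin (OCLN) and the immunoglobulin-like adhesion molecule JAM-A (F11R) lie in the same strands or beside them, and ZO-1 (TJP1) is the cytoplasmic scaffold that ties these proteins to actin. Claudin levels are often disturbed in carcinomas, in either direction.

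Library totals ranged from 25160757 to 39009959 counts in COAD, PAAD and TNBC and from 9063968 to 9520969 in PRAD. In PRAD no gene had more than 0.995 counts per base of exon, against 34.1 to 49.0 for the highest gene in each library of the other lines. Levels in PRAD are therefore printed beside those of the other lines and are not compared with them. The lines carried the defining markers of their labels to differing degrees. SW620 had VIL1 at 76.0 CPM (counts scaled to a common library size) per kb of exon in controls but CDX1 at 0.0059 and LGALS4 at 0.255, BxPC-3 had KRT7 at 257 and KRT19 at 553, LNCaP had KLK3 at 87.0, and HCC-70 had KRT5 at 373, ESR1 at 0.503 and 0 counts of PGR. KRT5 was higher in BxPC-3 (730), and ERBB2, the other receptor of the triple-negative definition, was at 23.4 to 25.2 in the control libraries of HCC-70, 11.9 to 12.2 in those of SW620 and 11.1 to 12.8 in those of BxPC-3.

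The promoters of 3 claudins are printed because CLDN3 and CLDN4 are neighbours on chromosome 7 that were both lower with Ocoxin in TNBC, and because CLDN7 was far lower in COAD than in PAAD and TNBC. CLDN3 (hg38, chromosome 7, 73768997 to 73770270, minus strand, 1 exon) and CLDN4 (chromosome 7, 73799542 to 73832693, plus strand) are 29271 bases apart with 0 other annotated genes between them. This gap runs to the edge of the annotated CLDN4 span. The CLDN4 start printed below lies within that span, so the printed CLDN3 and CLDN4 starts are further apart. Each sequence is the 250 bases before a RefSeq transcription start (GRCh38.p14), 5′ to 3′ on the strand of the gene. Capitals mark E-boxes (CANNTG) and GC boxes (GGGCGG, or CCGCCC on the other strand).
CLDN3, chr7:73770271-73770520, minus strand: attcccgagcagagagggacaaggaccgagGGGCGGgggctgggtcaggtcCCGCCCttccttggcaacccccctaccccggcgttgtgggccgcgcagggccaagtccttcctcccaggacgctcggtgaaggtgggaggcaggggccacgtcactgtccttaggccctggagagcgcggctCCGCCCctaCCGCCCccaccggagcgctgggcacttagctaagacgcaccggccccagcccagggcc
CLDN4, chr7:73830746-73830995, plus strand: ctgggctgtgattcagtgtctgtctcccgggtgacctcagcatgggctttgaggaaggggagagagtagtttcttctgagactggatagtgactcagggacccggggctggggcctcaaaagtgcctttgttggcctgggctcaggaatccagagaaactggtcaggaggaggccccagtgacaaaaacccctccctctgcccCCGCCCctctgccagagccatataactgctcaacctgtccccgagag
CLDN7, upstream start, chr17:7263214-7263463, minus strand: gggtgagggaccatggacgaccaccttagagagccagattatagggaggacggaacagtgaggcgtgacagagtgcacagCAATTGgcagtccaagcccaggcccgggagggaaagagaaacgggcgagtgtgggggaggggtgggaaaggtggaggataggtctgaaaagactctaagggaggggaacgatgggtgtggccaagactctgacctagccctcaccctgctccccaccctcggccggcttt
CLDN7, downstream start, chr17:7262479-7262728, minus strand: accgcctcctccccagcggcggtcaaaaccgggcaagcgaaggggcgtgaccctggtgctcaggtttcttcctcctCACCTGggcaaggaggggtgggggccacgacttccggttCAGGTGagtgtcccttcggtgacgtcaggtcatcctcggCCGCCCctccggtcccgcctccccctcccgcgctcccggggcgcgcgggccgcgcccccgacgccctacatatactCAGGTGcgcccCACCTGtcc

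The first search covered 4 motifs on both strands: the E-box CANNTG, the GC box GGGCGG, the TATA box TATAAA and the grainyhead motif AACNGGTT. They stood in 61.8%, 42.6%, 10.7% and 1.49% of the 35116 promoter windows of the same length. The table held 8 of the 10 genes with 14 starts, and CLDN8 and F11R were not among them. Of these starts, 6 held an E-box, 8 a GC box, 0 a TATA box and 0 the grainyhead motif. The CLDN3 window had 4 GC boxes and the CLDN4 window 1, and neither had an E-box. The downstream CLDN7 window had 4 E-boxes, and all 4 read CAGGTG on one of the strands. This narrower form, which lies within the E-box, was added to the search only after those matches had been seen. It was found in 4 of the 14 starts, from CLDN7, OCLN and TJP1, and in 17.5% of all windows. These are matches of letters, and which start each line used was not measured.

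At baseline the 4 lines expressed different sets of claudins. Levels between genes and lines are in CPM per kb of exon, as mean ± SD over the 3 control libraries. CLDN1, a barrier-forming claudin, was at 228 ± 10.8 in PAAD, 112 ± 10.2 in TNBC and 64.8 ± 1.58 in COAD, and these ranges did not overlap. In PRAD it had 6, 7 and 1 counts in the control libraries, a level of 0.137 ± 0.0938. CLDN7, a claudin that also lies along the lateral membrane, was at 121 ± 2.55 in TNBC and 49.8 ± 4.11 in PAAD but at 1.21 ± 0.208 in COAD, where 76 to 112 counts were found per control library. Its level in PRAD was 37.2 ± 1.22. CLDN7 shares 1.5% of its exonic bases with ELP5 on the other strand, and reads were counted without a strand setting. ELP5 had 2742 to 3828 counts per COAD library, and its effect on the count of CLDN7 was not tested. BxPC-3 and HCC-70 thus carried much CLDN1 and CLDN7, SW620 had CLDN1 without much CLDN7, and LNCaP had CLDN7 with almost no CLDN1.

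CLDN4, which is widely expressed in epithelia, was present at high levels in every line. It was at 93.9 ± 0.793 in TNBC, 34.1 ± 4.37 in PAAD and 24.8 ± 0.637 in COAD, and at 30.2 ± 1.94 in PRAD. Its neighbour CLDN3 was lower in each line. CLDN3 was at 8.71 ± 0.997 in TNBC, 3.22 ± 0.386 in COAD and 0.259 ± 0.121 in PAAD, where 8 to 16 counts per control library left it too low to test. In PRAD it was at 23.8 ± 7.79, with 1 control library at 18.9 CPM against 35.9 and 36.2 in the others.

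CLDN8, a claudin of the distal nephron and other tight epithelia, was not detected in COAD. It had 0 counts in all 6 COAD libraries, where 3 counts would have been 0.0876 to 0.119 CPM. Controls were at 22.3 ± 0.77 CPM per kb in TNBC and 2.83 ± 0.168 in PAAD, and at 11.6 ± 1.56 in PRAD. CLDN12, a claudin without the usual C-terminal scaffold-binding motif, was present in every line, with 13.8 ± 0.218 in TNBC, 10.2 ± 0.506 in PAAD, 7.42 ± 0.113 in COAD and 19.5 ± 1.07 in PRAD. CLDN2, which forms a pore for cations, had 0 to 10 counts in every library of every line and was not tested in any.

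The partners of the claudins were present in every line. F11R was at 51.3 ± 1.19 in TNBC, 38.8 ± 0.991 in PAAD and 16.4 ± 0.791 in COAD, and at 20.1 ± 0.132 in PRAD. OCLN was lower, at 3.84 ± 0.12 in TNBC, 1.33 ± 0.0722 in COAD, 0.619 ± 0.0637 in PAAD and 3.38 ± 0.21 in PRAD. TJP1 was at 6.1 ± 0.234 in PAAD, 5.48 ± 0.182 in TNBC, 3.87 ± 0.151 in COAD and 10.5 ± 0.0645 in PRAD. CLDN2 aside, the control libraries of COAD, PAAD and TNBC did not overlap for any of the genes, and TJP1 in PAAD and TNBC came closest. No share over all genes is given for this, and the genes were selected with these levels known, so it is not read as a trait of the set. A common scaling of the 3 lines multiplies the levels by 0.911 in COAD, 1.07 in PAAD and 1.02 in TNBC and leaves these orders as they are.

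**Figure D1:**
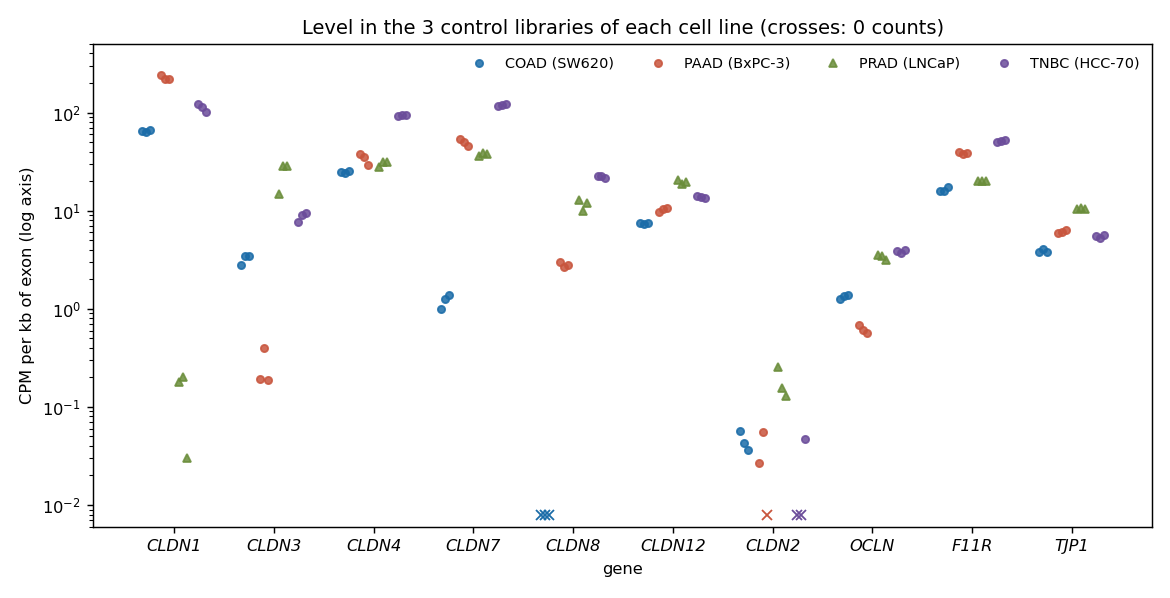
Level of each gene in the 3 control libraries of each line, in CPM per kb of exon on a log axis, with 1 point per library, triangles for PRAD (counted differently) and crosses for libraries with 0 counts. CLDN8 is at 0 counts in COAD and at 22.3 CPM per kb in TNBC, CLDN7 is at 1.21 in COAD and 121 in TNBC, and CLDN1 is at 64.8 in COAD and 228 in PAAD.

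With Ocoxin, the largest difference among these genes was that of CLDN8 in PAAD. Its control libraries were at 6.22, 5.52 and 5.84 CPM and its Ocoxin libraries at 1.47, 1.7 and 1.68 CPM. Every Ocoxin library was below every control library. The log2 fold change was -1.85 ± 0.154 (SE, n = 3 against 3), a level that decreased by 72.3%, from 174 to 202 counts in controls and 46 to 58 with Ocoxin. The other lines that express CLDN8 differed less. In TNBC its controls were at 47.1, 47.1 and 44.3 CPM and its Ocoxin libraries at 50.7, 48.7 and 45.6 (log2 fold change 0.07 ± 0.0551), and in PRAD they were at 26.8, 20.5 and 24.8 against 20.5, 23.4 and 18.3 (-0.21 ± 0.132). In both of these lines the groups overlapped. Whether the responses of CLDN8 differ between lines was not tested, since the gene was selected with them known.

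CLDN4 and CLDN3 were both lower with Ocoxin in TNBC. CLDN4 controls were at 438, 440 and 445 CPM and Ocoxin libraries at 328, 315 and 330 CPM, with no overlap, a log2 fold change of -0.44 ± 0.0336 (the level decreased by 26.5%). CLDN3 controls were at 9.66, 11.5 and 12.1 CPM and Ocoxin libraries at 7.91, 6.46 and 8.56 CPM, again with no overlap, a log2 fold change of -0.54 ± 0.122 (the level decreased by 31.1%). In the other lines these neighbours stayed within the spread of their libraries. The log2 fold change of CLDN4 was 0.04 ± 0.0536 in COAD, 0.10 ± 0.0799 in PAAD and 0.01 ± 0.0503 in PRAD, and that of CLDN3 was 0.04 ± 0.168 in COAD and 0.11 ± 0.229 in PRAD. Several of these small values changed sign when 1 library was left out. Those of CLDN3 and CLDN4 in PRAD turned to -0.14 and -0.04 without the first control library, that of CLDN4 in PAAD to -0.0012 without the third, and that of CLDN3 in COAD to -0.05 without the first control or the second Ocoxin library.

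CLDN1 was lower with Ocoxin in PAAD by a small margin. Its controls were at 881, 814 and 812 CPM and its Ocoxin libraries at 755, 733 and 700 CPM, with no overlap and a log2 fold change of -0.20 ± 0.0539. In TNBC controls were at 444, 416 and 370 CPM against 384, 368 and 327 CPM with Ocoxin, and the groups overlapped (-0.19 ± 0.0801). COAD showed 238, 231 and 243 CPM against 237, 248 and 254 (0.05 ± 0.0475). The PRAD libraries had 6, 7 and 1 counts in controls and 12, 14 and 10 with Ocoxin (1.34 ± 0.473), all near the limit of detection at this depth.

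F11R was lower in the Ocoxin libraries of 3 lines without overlap, but it passed the threshold given below only in TNBC. In TNBC its controls were at 255, 258 and 267 CPM against 218, 230 and 225 CPM with Ocoxin (-0.21 ± 0.0364). In PAAD they were at 202, 192 and 195 against 180, 175 and 178 (-0.14 ± 0.0521), and in PRAD at 102, 102 and 101 against 91.8, 91.5 and 94.8 (-0.13 ± 0.0389). In COAD the groups overlapped (-0.05 ± 0.0567). F11R shares 36.6% of its exonic bases with an unnamed overlapping gene that had at most 12 counts in a library, and reads on 2 genes were not counted.

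OCLN and TJP1 were lower in the COAD libraries given Ocoxin, but no difference in this paragraph passed the threshold given below. OCLN controls were at 8.49, 9.11 and 9.45 CPM and Ocoxin libraries at 6.78, 6.88 and 7.05 CPM, without overlap (-0.39 ± 0.113). TJP1 was at 42.6, 45.6 and 42.7 CPM against 39.6, 38.7 and 39.7 (-0.15 ± 0.063), also without overlap. In PRAD TJP1 was at 117, 119 and 118 CPM against 98.1, 106 and 110 (-0.18 ± 0.0488), again without overlap. In PAAD and TNBC TJP1 had log2 fold changes of 0.08 ± 0.0629 and 0.07 ± 0.0493, and OCLN of 0.06 ± 0.155 and -0.09 ± 0.0614, of which only OCLN in TNBC had no overlap between groups. CLDN7 and CLDN12 had log2 fold changes from -0.10 (CLDN12 in TNBC) to 0.23 (CLDN7 in COAD, SE 0.189), and only CLDN12 in TNBC had no overlap between groups (91.3 to 94.2 CPM against 80.6 to 90.2).

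**Figure D2:**
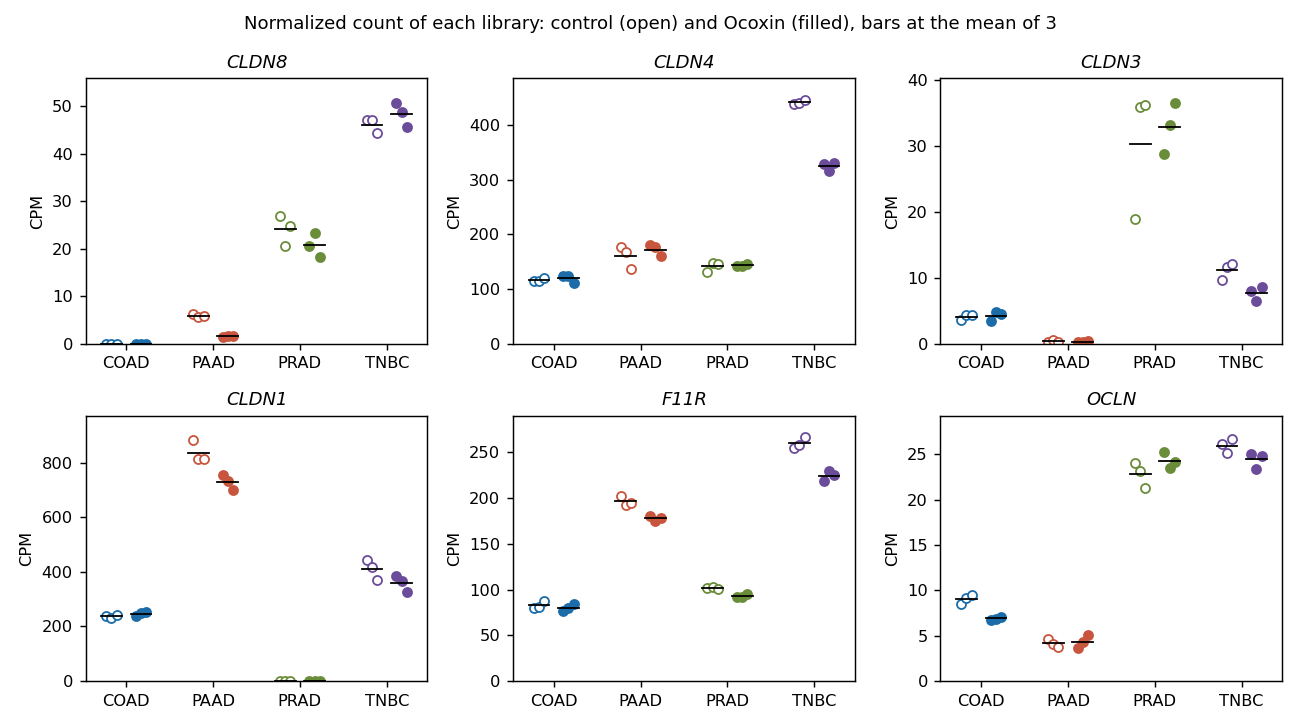
Normalized counts (CPM, linear axes from 0) of 6 genes in each of the 24 libraries, with controls as open and Ocoxin as filled points and a bar at the mean of each group of 3. In PAAD, CLDN8 is at 5.52 to 6.22 CPM in controls and 1.47 to 1.7 with Ocoxin, and in TNBC, CLDN4 is at 438 to 445 against 315 to 330.

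Counted by the rule used for all genes, edgeR's quasi-likelihood test with a Benjamini-Hochberg adjusted p under 0.05, 2 of the 8 genes of the set tested in PAAD passed, CLDN1 and CLDN8, both lower. In TNBC 3 of 9 passed, CLDN3, CLDN4 and F11R, all lower, and in COAD (8 tested) and PRAD (9 tested) 0 passed. Nothing is read from these counts, because the genes were selected on the same contrast. Over all genes tested, 4.72% were called higher and 3.62% lower in PAAD, 9.65% and 11.3% in TNBC, 1.47% and 1.09% in COAD, and 2.4% and 0.58% in PRAD. With the replicate number as a block, 1 gene of the set was called higher (CLDN4) and 3 lower (CLDN1, CLDN8 and F11R) in PAAD, where 12.1% of all genes were higher and 11% lower. In TNBC the block gave 4 lower (CLDN1 was added), with 16.3% of all genes higher and 17.6% lower. CLDN1 in PAAD was past the threshold without the third control library and not without any other single library, nor with the trend in gene length and GC content removed (-0.14).

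**Figure D3:**
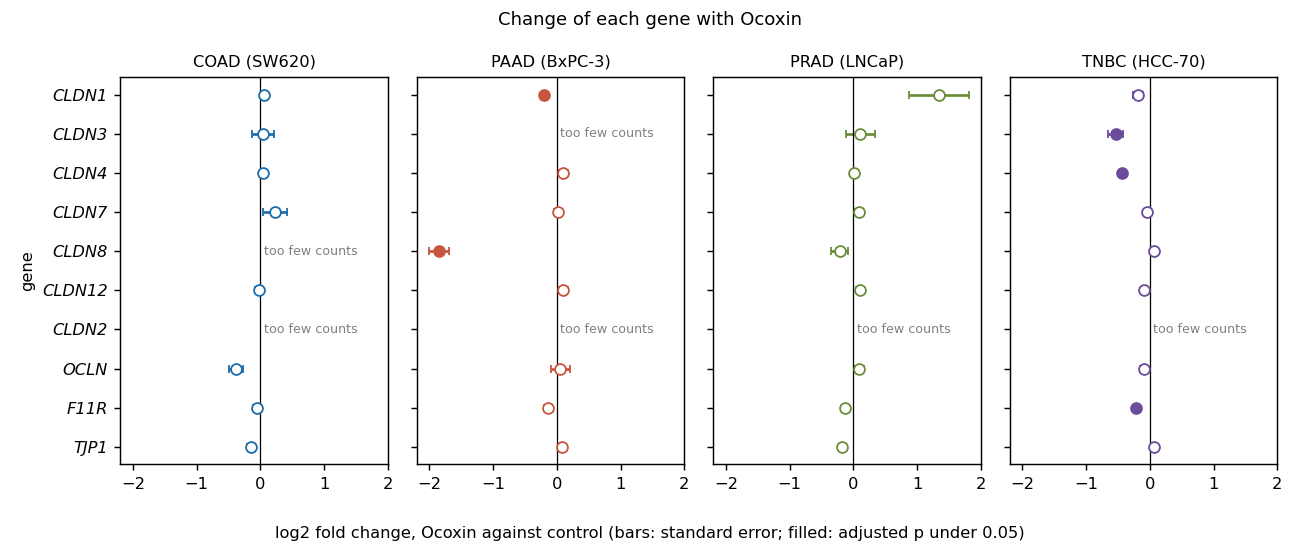
Log2 fold change of each gene, Ocoxin against control, with bars for the standard error and filled points where the adjusted p is under 0.05. CLDN8 in PAAD is at -1.85, CLDN3 and CLDN4 in TNBC are at -0.54 and -0.44, and CLDN1 in PRAD (1.34) has the widest error, 0.473.

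The summed level of the 10 genes was 426 to 436 CPM per kb in TNBC controls and 373 to 387 with Ocoxin, and 355 to 391 in PAAD controls and 331 to 349 with Ocoxin. The lower sum in PAAD was mostly that of CLDN1 (228 per kb in controls, 199 with Ocoxin), and 5 of the 8 genes tested there had log2 fold changes above 0. In COAD (121 to 127 against 122 to 127) and PRAD (147 to 162 against 157 to 159) the groups overlapped. In bulk RNA, fewer cells that express a gene and less RNA per cell cannot be told apart. The sum of 5 epithelial markers was also lower in TNBC, at 1031 to 1069 in controls and 804 to 877 with Ocoxin. Most of it was KRT19 (655 in controls, 524 with Ocoxin, log2 fold change -0.32). KRT8 was at -0.54, EPCAM at -0.25 and KRT18 at -0.24, while CDH1 (-0.09) did not pass the threshold. The sum of the mesenchymal markers was 29.3 to 32.9 in TNBC controls and 33.2 to 35.8 with Ocoxin. Of the 6 tested there, SNAI2 was higher (log2 fold change 0.64) and VIM lower (-0.90), and the others did not pass the threshold. In PAAD the endothelial and leukocyte list was at 10.3 to 11.5 in controls and 16.2 to 18.2 with Ocoxin, and most of it was CDH5 (10.3 in controls, 16.2 with Ocoxin), while PTPRC was at 0.0061. Their part in the results was not tested.

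For the rest of the pathway, 71 other junction genes in 6 lists were tested in the same fits. The lists were chosen with earlier results of these data known. Their counts and medians, here and in the comparisons between lines, are therefore given as a description beside the values for all genes. In TNBC 18 of the 53 tested genes passed, 4 higher and 14 lower, where 9.65% of all genes were higher and 11.3% lower. The replicate block gave 8 higher and 21 lower, where 16.3% and 17.6% of all genes were. The median log2 fold change of the 53 was -0.06, against 0.0056 over all genes. The 5 membrane proteins called in the list of 10 tested were all lower. ESAM, an adhesion molecule of the same family as JAM-A, fell from 18.5, 19.2 and 19 CPM to 14.8, 12.1 and 8.95 (log2 fold change -0.66 ± 0.149, adjusted p 0.0136 by edgeR). Of the 4 other claudins tested only CLDN23 passed, at -0.69 ± 0.143 (adjusted p 0.00479).

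Of the polarity genes 2 of 9 tested were lower in TNBC and of the adherens junction genes 3 of 8, and 0 of either list were higher. CRB3, an apical polarity protein, had a log2 fold change of -0.45 ± 0.0912 (adjusted p 0.00428), and CDH3, P-cadherin, of -0.36 ± 0.0412 (adjusted p 9.72e-05). OVOL1, a transcription factor that holds the epithelial state, went from 10.2, 9.5 and 11.1 CPM to 7.75, 7.24 and 4.76 (-0.64 ± 0.157, adjusted p 0.0151). Of the scaffolds, 3 of 12 tested genes were higher and 1 lower, and 8 did not pass. TJAP1, a junction-associated protein, rose by 0.29 ± 0.0614 (adjusted p 0.00591), MAGI1 by 0.19 ± 0.0605 (adjusted p 0.0451) and cingulin, CGN, by 0.14 ± 0.0463 (adjusted p 0.0427). ARHGEF2, a guanine nucleotide exchange factor held at tight junctions, rose by 0.32 ± 0.0422 (adjusted p 0.000264). Each of these genes had no overlap between control and Ocoxin libraries, which the rule for naming them required.

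In PAAD 10 of the 56 tested junction genes passed, 5 higher and 5 lower, where 4.72% of all genes were higher and 3.62% lower. The replicate block gave 11 higher and 16 lower, where 12.1% and 11% of all genes were. The count was 6, 6, 6 and 5 without control 1, control 2, Ocoxin 1 and Ocoxin 2. The median of the 56 was -0.08, against 0.0027 over all genes. Of 9 adherens junction genes 4 were lower and 0 higher. They were the nectins NECTIN4 (-0.37 ± 0.0743, adjusted p 0.0062) and NECTIN1 (-0.19 ± 0.0532, adjusted p 0.0385), CTNND1, the p120 catenin (-0.27 ± 0.0482, adjusted p 0.00254), and CDH3 (-0.24 ± 0.0606, adjusted p 0.0245). YBX3, the ZO-1-associated factor ZONAB, was lower too (-0.21 ± 0.0539, adjusted p 0.025).

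The genes that rose in PAAD were scaffolds and regulators for the most part. CGNL1, paracingulin, went from 7.48, 9.23 and 9.12 CPM to 10.9, 11.9 and 13.9 (0.51 ± 0.118, adjusted p 0.0139). ELF3, an epithelial transcription factor, went from 93.6, 87.6 and 81.1 CPM to 114, 114 and 113 (0.38 ± 0.0619, adjusted p 0.00132). TJAP1 rose by 0.37 ± 0.0677 (adjusted p 0.00311), the tricellular junction protein ILDR1 by 0.35 ± 0.0863 (adjusted p 0.0202) and ARHGEF2 by 0.23 ± 0.0599 (adjusted p 0.0288). All were tested with edgeR.

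In PRAD 3 of 53 tested junction genes passed, all higher, where 2.4% of all genes were higher and 0.58% lower. ILDR2 went from 1.74, 1.28 and 1.42 CPM to 4.92, 4.29 and 3.98 (log2 fold change 1.56 ± 0.202, adjusted p 0.0179), MAGI2, a scaffold, from 3.6, 3.4 and 4.26 to 7.59, 7.62 and 7.86 (1.03 ± 0.141, adjusted p 0.0194), and ARHGEF2 from 54.1, 64.2 and 68.1 to 118, 96 and 83.3 (0.67 ± 0.134, adjusted p 0.044). The count was 0 without control 2, control 3, Ocoxin 1 or Ocoxin 2, and 2 without control 1. In COAD 0 of 52 passed with edgeR, which called 1.47% of all genes higher and 1.09% lower, and 0 passed with DESeq2. Of the 52, 5 had an unadjusted edgeR p under 0.05, for which no share over all genes is given, and 2 passed without control 3. The medians were -0.01 in PRAD and -0.02 in COAD, against 0.0088 and -0.0053 over all genes.

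**Figure D4:**
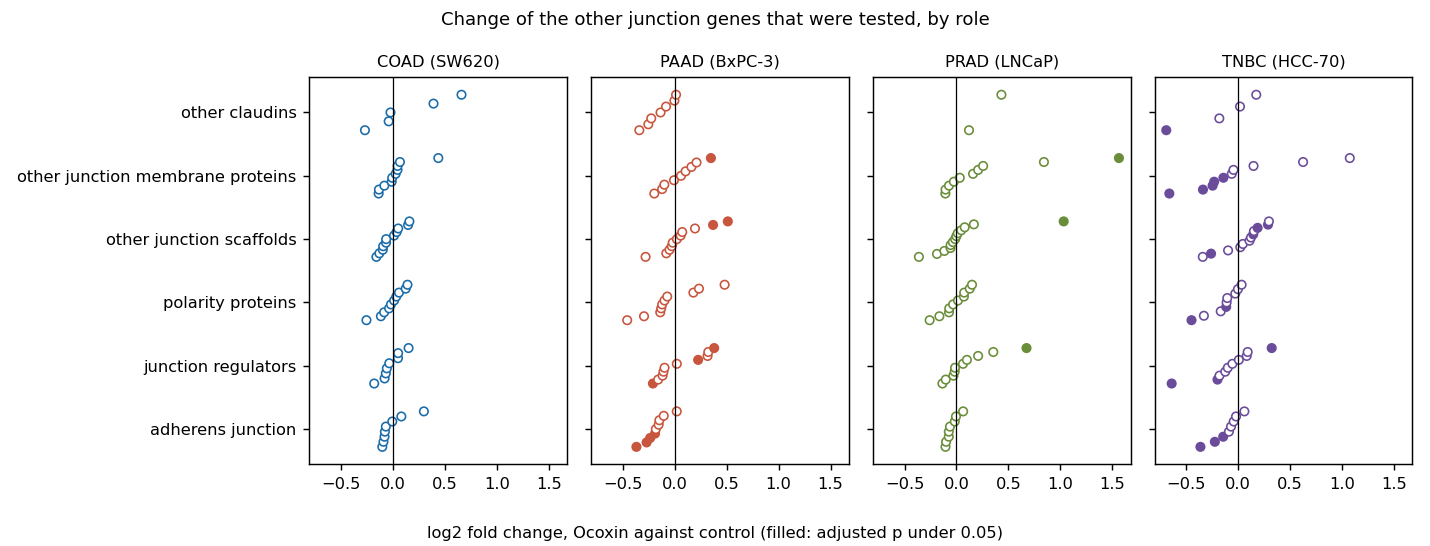
Log2 fold change, Ocoxin against control, of the other junction genes tested in each line, 1 point per gene in rows by role, filled where the adjusted p is under 0.05. In TNBC 14 filled points lie below 0 and 4 above, in PAAD 5 and 5, in PRAD 0 and 3, and in COAD there are 0.

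The responses of the junction genes were then compared between the 3 lines counted in one table. PAAD and TNBC differed in 9 of 62 junction genes, where 4.56% of the 21068 genes of that fit differed, and in 20 with the replicate block, where 12.5% did. ELF3 differed most clearly, rising in PAAD and falling in TNBC (difference of log2 fold changes 0.58 ± 0.0741, adjusted p 6.59e-06). EPCAM, which stabilises claudin 7 and claudin 1, differed by 0.40 ± 0.0818 (adjusted p 0.00255), at -0.25 in TNBC and 0.16 in PAAD, the latter not past the threshold. CRB3 differed by 0.62 ± 0.144 (adjusted p 0.00798) and CTNND1 by -0.25 ± 0.0588 (adjusted p 0.00835).

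COAD and TNBC differed in 4 of the 62, where 7.85% of all genes did. These were CLDN23 (1.36 ± 0.278, adjusted p 0.00211), MAGI1 (-0.34 ± 0.094, adjusted p 0.0228), NECTIN2 (0.31 ± 0.0913, adjusted p 0.0322) and ARHGEF2 (-0.27 ± 0.0825, adjusted p 0.0443). COAD and PAAD differed in 4 as well, where 3.96% of all genes did. They were ELF3 (-0.55 ± 0.0773, adjusted p 6.17e-05), YBX3 (0.27 ± 0.0677, adjusted p 0.0208), CGNL1 (-0.45 ± 0.128, adjusted p 0.0412) and CTNND1 (0.20 ± 0.0589, adjusted p 0.0456). Leaving out 1 library gave counts of 1 to 8 for COAD against TNBC and of 1 to 7 for COAD against PAAD, with the highest count without COAD control 3 in both. These comparisons share the libraries of each line, and the dilution differed between PAAD and the other lines.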

How the data were processed

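The authors used fastp for trimming, STAR for alignment to hg38, picard to take out duplicates and featureCounts (2.0.3 per the file headers) to count exonic reads by gene. What they deposited are raw counts, made from primary alignments with no strand setting for a stranded kit, and reads on 2 genes were dropped. PRAD was counted without the paired-end setting, in a separate table. The labels give the Ocoxin dilution for controls too, so the letters C and O in the titles decided the group.

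Each line was fitted alone with edgeR 4.0.16 (R 4.3.3): filterByExpr, TMM, robust quasi-likelihood F-tests (two-sided) and Benjamini-Hochberg adjustment over all genes tested (17659 for COAD, 17280 for PAAD, 17070 for PRAD, 17352 for TNBC). CPM use TMM library sizes within a line. Responses were compared in 1 fit over 18 libraries, with PRAD left out. These steps were tested on simulated data. Members and lists were chosen with earlier results of these data known. Named genes were all 10 members, up to 6 other junction genes with the largest rise and 6 with the largest fall in each line (past the threshold, mean CPM of at least 1, no overlap between groups), and up to 4 per pair of lines with the smallest p. Some genes that these rules name are not reported here. Alternatives were DESeq2 1.42.0, its size factors, no filter, a replicate block and each library left out, and, chosen after seeing the data, removal of a length and GC trend.

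Replicate numbers were checked for pairing by correlating the deviations of same-numbered libraries from their group means. Over genes with a mean of at least 10 CPM every pair was above 0.1 in PAAD (0.405, 0.314 and 0.615), PRAD (0.296, 0.176 and 0.605) and TNBC (0.285, 0.32 and 0.629) but not in COAD (0.399, 0.0813 and 0.503). Over all tested genes no line had every pair above 0.1. The blocked values are printed beside the PAAD and TNBC results. In PRAD the block called 3 of the other junction genes higher and 1 lower, with no share over all genes given. No 2 libraries were alike within sampling noise (chi-square per degree of freedom 1.75 to 13.8). Promoter motifs were searched in the RefSeq windows as described with the sequences, and 1 of the 5 motifs was added after matches had been seen.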

Additional observations from a re-analysis of the deposited data

Results flagged for a closer look

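Junction genes whose response to Ocoxin differed between 2 lines by edgeR's interaction test are given with the difference of log2 fold changes. Between PAAD and TNBC these included ELF3 (0.58), EPCAM (0.40), CRB3 (0.62), CTNND1 (-0.25), OVOL1 (0.96), PARD6A (0.81), NECTIN1 (-0.25) and ESAM (0.72). Between COAD and TNBC they were CLDN23 (1.36), MAGI1 (-0.34), NECTIN2 (0.31) and ARHGEF2 (-0.27). Between COAD and PAAD they were ELF3 (-0.55), YBX3 (0.27), CGNL1 (-0.45) and CTNND1 (0.20). PARD6A falls outside the rule for named genes and was chosen after its values were seen.

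For 4 of the genes reported here, every Ocoxin library lay above every control library in PRAD and below every control library in another line. The differences were not tested, because PRAD was counted in another table. No share over all genes is given, and the naming rule favoured genes without overlap in a line. Nothing is therefore read from this count. CLDN1 was at -0.20 in PAAD and 1.34 in PRAD, where it had at most 14 counts. CLDN23 was at -0.69 in TNBC and 0.43 in PRAD. ELF3 was at -0.18 in COAD, -0.20 in TNBC and 0.21 in PRAD. OVOL1 was at -0.64 in TNBC and 0.35 in PRAD.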

How the results depend on the processing

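With the replicate block, the junction genes called were 5 in COAD (0 without it), 27 in PAAD (10), 4 in PRAD (3), 29 in TNBC (18), and 20, 16 and 12 genes differed for PAAD against TNBC, COAD against TNBC and COAD against PAAD (9, 4 and 4 without it). The block also called more of all genes. It gave 12.1% higher and 11% lower in PAAD (4.72% and 3.62% without it). In TNBC it gave 16.3% and 17.6% (9.65% and 11.3% without it). Between PAAD and TNBC 12.5% of all genes differed with it and 4.56% without. For the other counts in this paragraph no share over all genes is given, so nothing is read from them. With the length and GC trend removed the counts were 1 in COAD and 19 in PAAD, and with the block as well 3 in COAD, 27 in PAAD and 10 in PRAD. Without a filter on low counts 14 genes differed between PAAD and TNBC and 7 between COAD and TNBC. DESeq2 gave 13 in PAAD, 4 in PRAD and 17 in TNBC. Leaving out 1 library gave 0 to 2 in COAD, 5 to 12 in PAAD, 0 to 3 in PRAD and 13 to 21 in TNBC. For the differences it gave 6 to 11 (PAAD against TNBC), 1 to 8 (COAD against TNBC) and 1 to 7 (COAD against PAAD). The last were 1 without COAD control 1, COAD control 2, COAD Ocoxin 2, PAAD control 1 or PAAD Ocoxin 3, 2 without PAAD Ocoxin 2 and 7 without COAD control 3. COAD against TNBC was 1 without COAD control 1, COAD control 2, COAD Ocoxin 2 or TNBC control 2, 2 without COAD Ocoxin 3, TNBC control 3 or TNBC Ocoxin 1, and 8 without COAD control 3. The cause was not tested.

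Of the alternative values for the log2 fold changes of the 10 genes, 396 stayed within their spread and 12 moved beyond it. Under at least 1 alternative the sign changed for CLDN3 and CLDN12 in COAD, CLDN4, CLDN7 and OCLN in PAAD, CLDN3 and CLDN4 in PRAD and TJP1 in TNBC, all small and not past the threshold in the fit reported. The COAD replicate numbers share only a number by the check used. Counting error limits CLDN2 in all lines, CLDN1 in PRAD and CLDN3 in PAAD.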
